A study of Homo sapiens with 6 samples.

Results

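The Wnt ligands, their Frizzled and LRP receptors, the secreted Wnt antagonists and the core of the β-catenin branch were followed in a human breast cancer cell line with and without a mutant RKIP. Genes were chosen by symbol alone (WNT, FZD, SFRP or DKK followed by a number, and 12 further genes of the pathway), which gives 49 genes. Of these, 44 have at least 1 probe set that names no other gene, out of 19775 genes measured in all, and each was read by the probe set with the brightest mean over the arrays. TCF7, a TCF factor, PORCN, the acyltransferase that lipidates Wnt proteins, and the ligand WNT3A have no probe set under their symbol in the annotation used here. The receptor FZD8 and the ligand WNT3 are named only by probe sets shared with another gene, 3 each, and were not analysed. The neighbouring transcripts FZD10-AS1 and FZD4-DT are not Frizzled genes and were not counted.

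Wnt proteins are secreted, lipid-modified ligands that bind a Frizzled receptor together with the co-receptor LRP5 or LRP6. Without them a complex of APC and the AXIN proteins marks β-catenin for destruction, and with them β-catenin builds up and acts with TCF and LEF factors on target genes such as AXIN2. Some ligands, WNT5A among them, act mainly through Frizzled and ROR receptors without β-catenin, on polarity and calcium signalling. SFRP proteins and WIF1 bind the ligands, and DKK1 blocks the LRP co-receptors. DKK1 is best known in breast cancer for its part in bone metastasis, where it holds back bone-forming osteoblasts.

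Transcripts were measured on 6 HG-U133 Plus 2.0 arrays, 3 per group. All cells were the 1833 subline of MDA-MB-231, a metastatic breast cancer line, selected for growth in bone. One group is control, described by the series as carrying vector, and the other was transduced with S153E-RKIP, a mutant of the Raf-1 inhibitor RKIP, in a lentiviral vector and kept in puromycin. The titles call the 3 arrays of each group biological replicates, but the number of clones or transductions behind them is not given. Whether the control had puromycin is not given in the labels either. The p-values therefore rest on the spread among these arrays alone, and part of that spread may be technical. Values are log2 RMA signals, differences are S153E-RKIP minus control, and a gene was called at a limma adjusted p under 0.05 over all genes.

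PEBP1, which encodes RKIP, had signals of 11.77, 11.73 and 11.77 in control and 11.74, 11.64 and 11.61 on the arrays labelled S153E-RKIP. Its difference was -0.093 (SE 0.058, adjusted p = 0.473), so PEBP1 did not set the labelled groups apart. Its other probe sets gave -0.082 and -0.13, also with overlapping groups. Whether these probe sets can read the vector's transcript is not given. The source field of those arrays names an HMGA2 shRNA instead, and HMGA2 was likewise not called (-0.023, adjusted p = 0.882). Of its 9 probe sets 8 had differences below 0 and 1 an unadjusted p under 0.05 (-0.26), but none was called. Every direction below therefore rests on the titles. The description and characteristics of the arrays titled S153E-RKIP also name S153E-RKIP. All 6 markers of MDA-MB-231 cells had mean signals of 11.37 or more. Of 6 luminal breast markers 3 lay above the median level of all genes (6.64), namely KRT19 (11.19), GATA3 (8.08) and ESR1 (6.65). ESR1 lay only just above it, with all 3 controls below. KRT19 was called lower (-0.48). Of 14 measured markers of blood, vessel, stromal and bone cells 2 lay above that level, COL1A1 and PECAM1, and none was called. In a principal component analysis of all genes the second component (21.6% of the variance) set S153E-RKIP replicate 1 apart from the others of its group.

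None of the 44 Wnt genes was called, higher or lower. Over all genes 376 of 19775, or 1.90%, were called. At an unadjusted p under 0.05 there were 11 Wnt genes, 6 higher and 5 lower, which is 25% of the 44 beside 15.7% of all genes. The groups did not overlap in 11 of the 44, 7 higher and 4 lower, again 25%, beside 20.1% of all genes. The median difference was 0.061 for the Wnt genes and 0.010 for all genes. The largest differences were those of 2 antagonists, DKK1 (-0.35) and SFRP1 (0.32). Every 95% confidence interval of a Wnt gene lay between -0.56 and 0.56, a change of at most 1.47-fold in either direction, and 42 of the 44 lay within 0.5 of 0. These intervals are for the brightest probe set of 1 gene at a time and are not adjusted for the number of genes. A dimmer probe set of FZD3 had a larger difference than any of these genes (0.39).

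**Figure D1:**
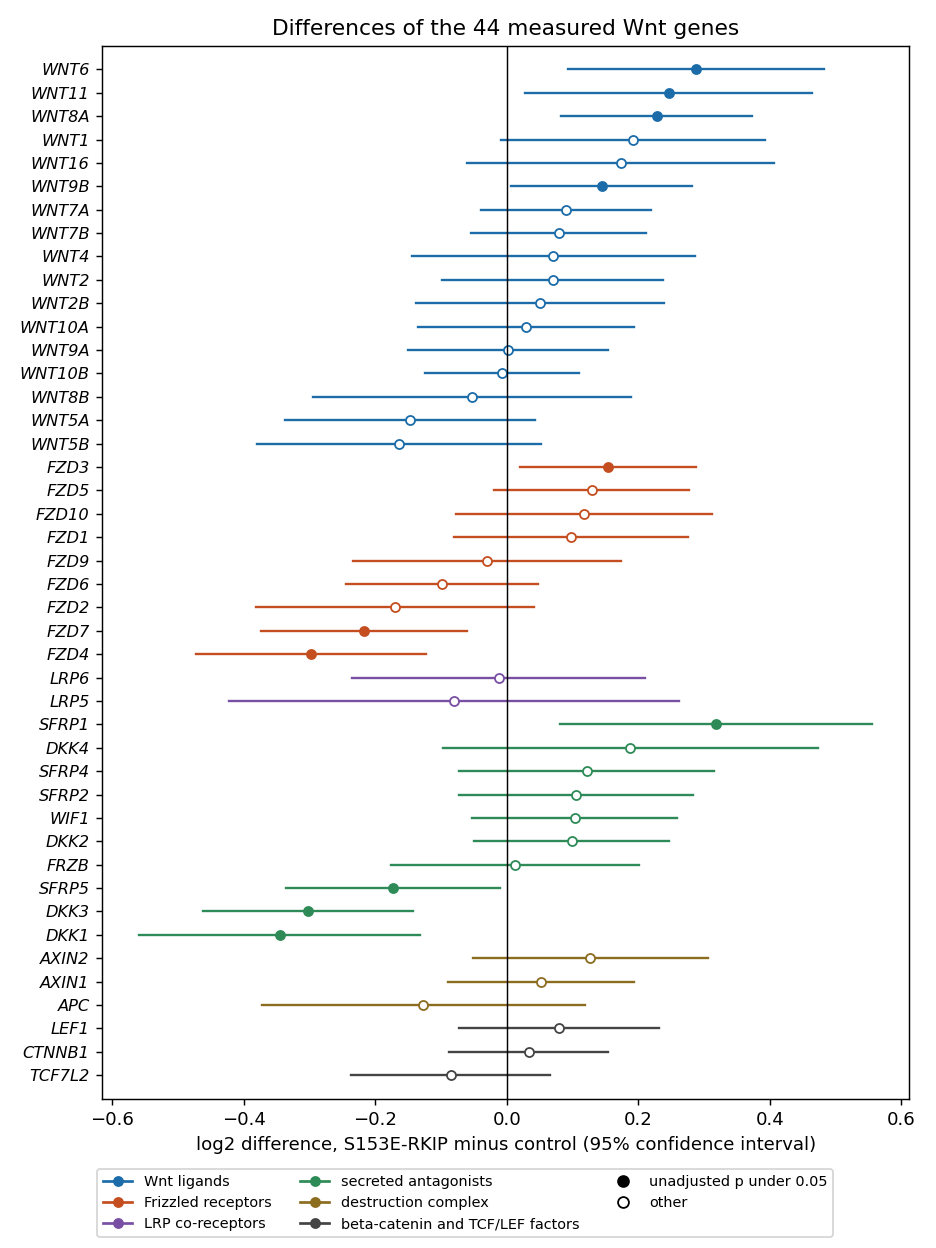
Log2 difference (S153E-RKIP minus control) of each of the 44 measured Wnt genes on the horizontal axis, grouped by role, with its 95% confidence interval from limma. Filled points mark the 11 genes with an unadjusted p under 0.05. No gene was called after adjustment, and no interval reaches beyond 0.56 on either side.

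Promoter windows of 2 Wnt genes carry a TCF/LEF-like motif, and their sequences are shown because one is the antagonist with the largest difference and the other a TCF factor whose probe sets all had a difference below 0. The windows run from 250 bases before to 50 after a RefSeq start site (GRCh38.p14) and were available for 30 of the 44 genes, 36 windows in all. The core CTTTGNT was searched on both strands. It was found in 2 of the 36 windows (5.56%), beside 15.4% of the 35116 windows in the whole table. The narrower core CTTTGAT, which is contained in it, was in 0 of the 36 and in 2.62% of all windows. The windows lie at chr10:52314031-52314330 on the plus strand for DKK1 and at chr10:113126383-113126682 on the plus strand for an internal start of TCF7L2, and capitals mark the match to CTTTGNT. TCF7L2 also has windows at chr10:112949997-112950296 and chr10:113129021-113129320, which had 0 matches and are not shown. A match is a run of letters and not a measured binding site.
DKK1: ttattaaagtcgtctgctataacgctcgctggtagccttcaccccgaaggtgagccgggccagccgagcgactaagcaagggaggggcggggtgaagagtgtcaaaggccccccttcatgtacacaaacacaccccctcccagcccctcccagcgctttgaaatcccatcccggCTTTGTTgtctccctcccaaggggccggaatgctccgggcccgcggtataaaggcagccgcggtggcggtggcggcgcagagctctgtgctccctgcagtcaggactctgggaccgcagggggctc
TCF7L2: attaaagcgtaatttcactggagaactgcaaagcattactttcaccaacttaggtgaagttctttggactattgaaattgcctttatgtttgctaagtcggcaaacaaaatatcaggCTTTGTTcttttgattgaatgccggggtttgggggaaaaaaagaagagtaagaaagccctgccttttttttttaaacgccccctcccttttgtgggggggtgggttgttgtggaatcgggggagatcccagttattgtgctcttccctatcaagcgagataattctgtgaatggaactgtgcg
Counted from the start site, the first base of the match lies at -76 in DKK1 and at -133 in TCF7L2.

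Of 17 measured Wnt ligands none was called, 13 had a difference above 0 and 4 below, and their median was 0.071. The 4 with an unadjusted p under 0.05 (23.5%, beside 15.7% of all genes) were all higher on the arrays labelled S153E-RKIP. Only 3 of the 17 ligands lay above the median level of all genes. Below that level 68.9% of all genes had a difference above 0. At an unadjusted p under 0.05, 1034 genes there were higher and 251 lower. WNT6, a ligand of epithelia, had signals of 6.33, 6.62 and 6.61 in control and 6.78, 6.85 and 6.79 in S153E-RKIP, so that the groups did not overlap. The difference was 0.29 (95% confidence interval 0.092 to 0.48, SE 0.085, adjusted p = 0.165). Its other 3 probe sets also had differences above 0, from 0.086 to 0.13, and averaging all 4 gave 0.15. WNT8A, an embryonic ligand, gave 5.19, 5.33 and 5.33 in control against 5.54, 5.54 and 5.45, again without overlap (0.23, SE 0.063, adjusted p = 0.146). WNT11, a ligand of the polarity branch, had 5.43, 5.59 and 5.59 against 5.95, 5.59 and 5.81, where S153E-RKIP replicate 2 lay at the control level (0.25, SE 0.095, adjusted p = 0.273), and without replicate 1 the difference was 0.16. WNT9B, a kidney ligand, had 4.51, 4.52 and 4.38 against 4.64, 4.60 and 4.61, with no overlap (0.14, SE 0.060, adjusted p = 0.303). WNT8A, WNT11 and WNT9B were dim genes, with levels under 6.64, and the deposited values carry no measure of background. WNT6 lay only just above the median of 6.64, with a mean of 6.66 and all 3 controls below the median. The other probe sets of WNT6 were dimmer, with means from 4.18 to 4.81.

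Neither WNT5 ligand had an unadjusted p under 0.05. WNT5B, for which the signal lay above that median, had 8.34, 8.21 and 8.23 in control and 8.28, 7.91 and 8.10 in S153E-RKIP. Replicate 1 of S153E-RKIP lay among the controls, and the difference of -0.16 (adjusted p = 0.440, SE 0.094, 95% confidence interval -0.38 to 0.052) turned to 0.025 when its 3 probe sets were averaged. It was -0.26 without S153E-RKIP replicate 1 and -0.071 without replicate 2. WNT5A had 5.32, 5.26 and 5.16 against 4.96, 5.24 and 5.10, with overlapping groups (-0.15, SE 0.083, adjusted p = 0.429), -0.080 averaged over its 2 probe sets and -0.077 without S153E-RKIP replicate 1. The third ligand above the median level besides WNT6 and WNT5B was WNT7B, whose control signals ran from 7.19 to 7.24 and whose S153E-RKIP signals ran from 7.25 to 7.37. That difference was small (0.079, SE 0.058, adjusted p = 0.537) although the groups did not overlap, and its probe set is of the kind that can pair with several transcripts. The other 10 ligands had differences from -0.054 (WNT8B) to 0.19 (WNT1). WNT10B, a ligand known for mammary and bone biology, had the same value of 6.48 on 4 of the 6 arrays, and WNT2 the same value of 4.50 in all 3 controls, so that their spread in that group is listed as 0.

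**Figure D2:**
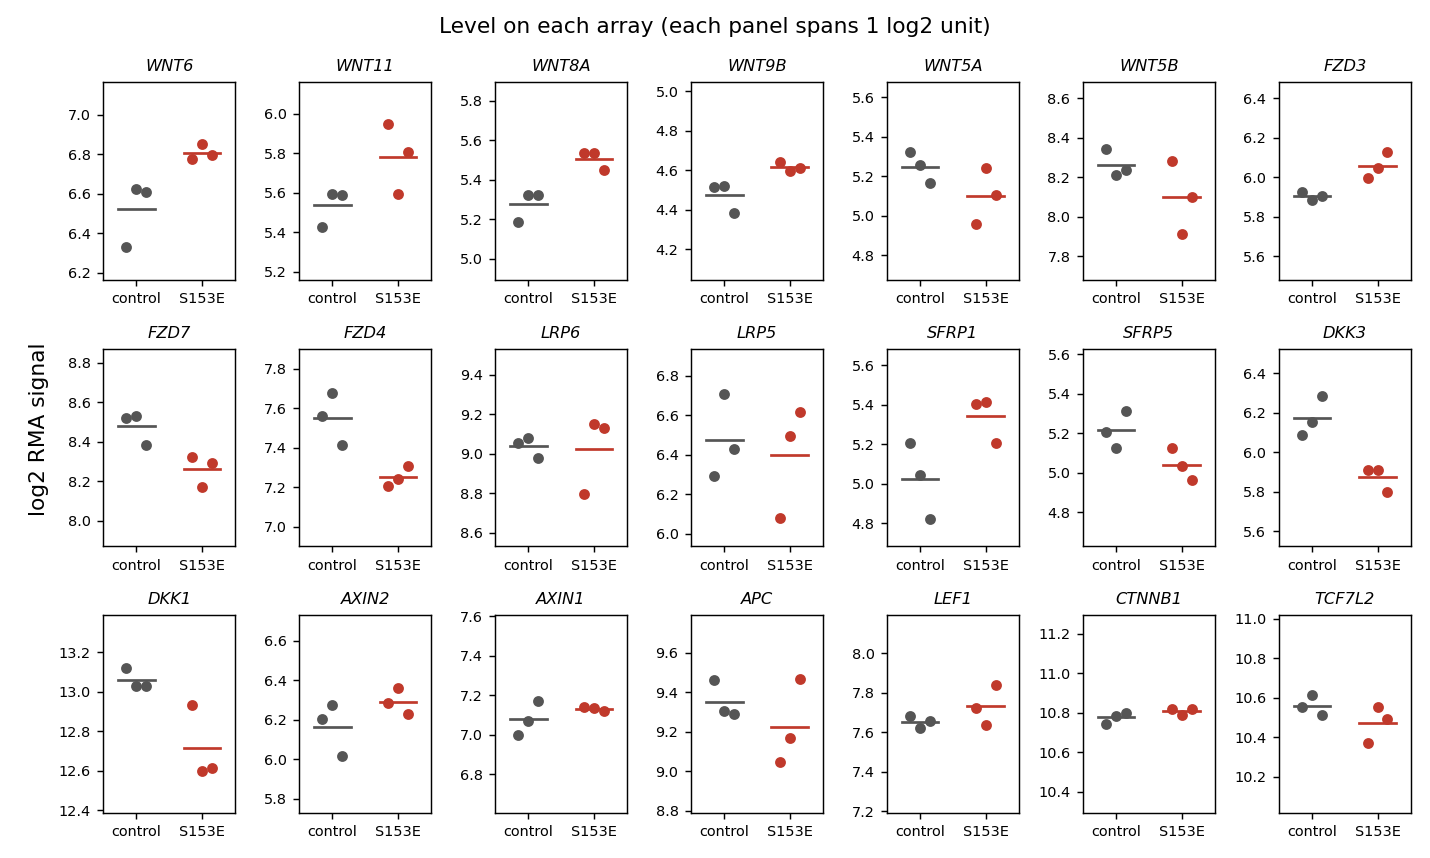
Log2 RMA signal on each array for the 21 Wnt genes described one by one, with control in grey and S153E-RKIP in red, 1 point per array and a bar for the mean of 3. Each panel spans 1 log2 unit around its own mean. DKK1, DKK3, FZD4 and FZD7 are lower and WNT6, WNT8A, WNT9B and FZD3 higher on all 3 S153E-RKIP arrays, and the other 13 panels overlap.

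Among 9 measured Frizzled receptors none was called, and 3 had an unadjusted p under 0.05 (33.3%, beside 15.7% of all genes). FZD4, a receptor that also binds the non-Wnt ligand norrin, had signals of 7.56, 7.68 and 7.41 in control and 7.21, 7.24 and 7.31 in S153E-RKIP. All 3 S153E-RKIP arrays were below all controls, at -0.30 relative to control (adjusted p = 0.116, SE 0.076, 95% confidence interval -0.47 to -0.12). Its dimmer probe set gave -0.046, and the mean of both -0.17. FZD7, a receptor studied in triple-negative breast cancer, had 8.52, 8.53 and 8.38 against 8.32, 8.17 and 8.29, also without overlap. FZD7 was thus at -0.22 (adjusted p = 0.190, SE 0.068, 95% confidence interval -0.37 to -0.061), and its second probe set gave -0.25. FZD3, a receptor of axon guidance, had a difference above 0, with 5.92, 5.88 and 5.90 against 5.99, 6.05 and 6.13 and no overlap (0.15, SE 0.058, adjusted p = 0.262). A dimmer probe set of FZD3 had a larger difference of 0.39 (adjusted p = 0.0672 over all probe sets), the nearest to the threshold among the 102 probe sets of the Wnt genes. The other probe sets of FZD3, dimmer still, gave 0.13 and -0.039. All FZD3 probe sets were dim, with means from 4.26 to 5.98. Below the median level of all genes (6.64), 68.9% of all genes had a difference above 0. The remaining 6 receptors had differences from -0.17 to 0.13, and all 6 had overlapping groups. FZD2, for which control signals ran from 10.04 to 10.22 and S153E-RKIP signals from 9.80 to 10.14, was at -0.17 (adjusted p = 0.415), and its second probe set gave -0.25. FZD6, which restrains β-catenin signalling, was at -0.099 (adjusted p = 0.485), with control signals from 10.58 to 10.72 and S153E-RKIP signals from 10.52 to 10.63.

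Neither co-receptor was called, and both had overlapping groups. LRP6 had 9.05, 9.08 and 8.98 in control and 8.79, 9.15 and 9.13 in S153E-RKIP, of which only replicate 1 was below the controls. LRP6 was at -0.012 (adjusted p = 0.966, SE 0.097, 95% confidence interval -0.24 to 0.21), and 0.10 without that array. LRP5 had 6.30, 6.71 and 6.43 against 6.08, 6.49 and 6.62, with replicate 1 again the lowest (-0.080, SE 0.15, adjusted p = 0.828), and 0.079 without it.

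Of 10 measured secreted antagonists none was called, and 4 had an unadjusted p under 0.05 (40%, beside 15.7% of all genes), 1 higher and 3 lower. DKK1 had signals of 13.12, 13.03 and 13.03 in control and 12.93, 12.60 and 12.61 in S153E-RKIP, so all 3 S153E-RKIP arrays were lower, replicate 1 by the least. DKK1 was at -0.35, or 1.27-fold lower (adjusted p = 0.136, SE 0.093, 95% confidence interval -0.56 to -0.13). DKK1 has 1 probe set, and its signal lay far above the median of all genes. Without S153E-RKIP replicate 1 the difference was -0.45 with an adjusted p of 0.0193, and with a variance trend and robust estimation in limma it was again -0.35 with an adjusted p of 0.0416. In the other 15 settings tried the adjusted p of DKK1 ran from 0.0707 to 0.385. DKK3, a divergent Dickkopf protein, had 6.09, 6.16 and 6.28 against 5.91, 5.91 and 5.80, with no overlap (-0.30, SE 0.070, adjusted p = 0.0824), the smallest adjusted p of the 44 genes. It was called with equal array medians (-0.34, adjusted p = 0.0396) and among genes above 6 on at least 3 arrays (adjusted p = 0.0434). DKK3 passed that filter through the 3 controls alone, since all 3 S153E-RKIP arrays lay below 6, so the filtered call is not separate support. Of its 6 probe sets 4 had differences below 0 and 1 an unadjusted p under 0.05, and the mean of all 6 was -0.094.

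SFRP1, an antagonist often silenced in breast cancer, had 5.21, 5.04 and 4.82 in control and 5.41, 5.41 and 5.21 in S153E-RKIP. Here control replicate 1 met S153E-RKIP replicate 3, so that SFRP1 was at 0.32 (adjusted p = 0.202, SE 0.10, 95% confidence interval 0.081 to 0.56). Averaged over its 4 probe sets it was at 0.14. SFRP5, of the same family, had 5.21, 5.12 and 5.31 against 5.12, 5.03 and 4.97, with overlapping groups (-0.17, SE 0.071, adjusted p = 0.294). The other 6 antagonists (DKK2, DKK4, SFRP2, SFRP4, FRZB and WIF1) had differences from 0.013 to 0.19, none with an unadjusted p under 0.05. Among antagonists DKK1 alone had a mean signal above the median of all genes.

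**Figure D3:**
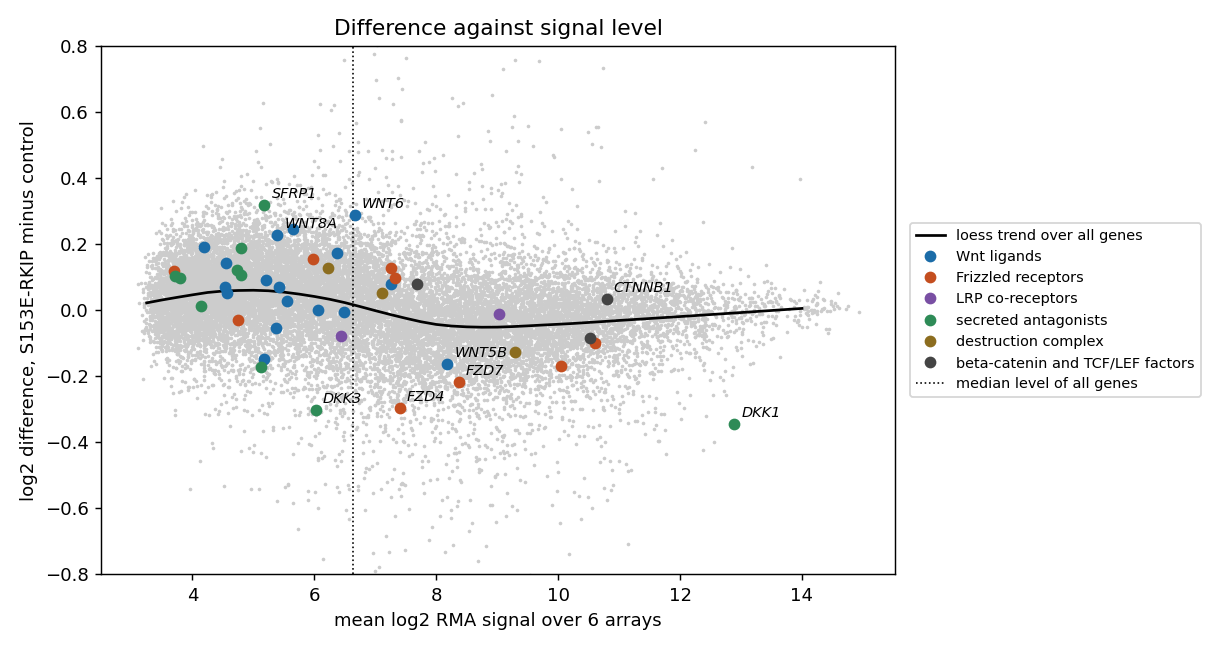
Log2 difference (vertical axis) against mean log2 RMA signal over the 6 arrays (horizontal axis) for all 19775 genes in grey and the 44 Wnt genes in colour by role, with the loess trend over all genes as a line and the median level (6.64) dotted. The trend is highest (0.060) below the median level, lowest (-0.052) above it and near 0 at the brightest signals, where DKK1 stands at -0.35. 91 genes beyond 0.8 on either side are not shown.

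Direction went with signal level among the Wnt genes, as it did among all genes. Below the median level 21 of 28 Wnt genes (75%) had a difference above 0, beside 68.9% of all genes at such levels. Above it 9 of 16 (56.2%) were below 0, beside 61.6% of all genes. A smooth trend of the difference on level ran from -0.052 to 0.060, and the part of this trend in the result was measured by subtracting it. The differences were then -0.34 for DKK1, -0.34 for DKK3, -0.28 for FZD4, -0.17 for FZD7, 0.27 for WNT6 and 0.26 for SFRP1. Those of the dim genes WNT8A, WNT11, FZD3 and WNT9B shrank. They went from 0.23 to 0.17, from 0.25 to 0.20, from 0.15 to 0.11 and from 0.14 to 0.086. SFRP5 went from -0.17 to -0.23. After subtraction and a new fit 0 Wnt genes were called by limma and 9 had an unadjusted p under 0.05. The share of 15.7% of all genes is from the fit without subtraction and is no background for these 9. Subtraction of the trend was a setting chosen after seeing the data.

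None of the 3 genes of the destruction complex and none of the 3 for β-catenin and its TCF/LEF partners was called. CTNNB1, which encodes β-catenin, had 10.74, 10.79 and 10.80 in control and 10.82, 10.79 and 10.82 in S153E-RKIP. CTNNB1 was at 0.033 (adjusted p = 0.793, SE 0.053, 95% confidence interval -0.088 to 0.15), and on the other side of 0 when its 3 probe sets were averaged (-0.064) or array medians made equal (-0.0024). The array measures transcript and not β-catenin protein, on which the pathway acts. APC, the scaffold that is lost in colon cancer, had 9.46, 9.31 and 9.29 against 9.05, 9.17 and 9.47, where replicate 3 of S153E-RKIP lay level with the highest control (-0.13, SE 0.11, adjusted p = 0.592). Its difference was -0.25 without that array, -0.037 without S153E-RKIP replicate 1 and -0.072 without control replicate 1. All 5 probe sets of APC had a difference below 0, from -0.29 to -0.054. AXIN1, the limiting scaffold, had 7.00, 7.07 and 7.17 against 7.14, 7.14 and 7.12, within the control range (0.052, SE 0.062, adjusted p = 0.715), and was at 0.011 without control replicate 1 and 0.097 without control replicate 3. AXIN2, the feedback target used as a readout of β-catenin signalling, had 6.20, 6.27 and 6.02 against 6.29, 6.36 and 6.23. These groups overlapped (0.13, adjusted p = 0.464, SE 0.078, 95% confidence interval -0.052 to 0.31), and the value was 0.054 without control replicate 3. Its 4 probe sets had differences from 0.027 to 0.22.

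LEF1, a factor that turns on with Wnt signalling in many tissues, had 7.68, 7.62 and 7.66 in control and 7.72, 7.63 and 7.84 in S153E-RKIP (0.079, SE 0.066, adjusted p = 0.590), with overlapping groups. The value was 0.026 without S153E-RKIP replicate 3 and 0.13 without replicate 2. TCF7L2, the main TCF factor of many epithelia, had 10.55, 10.61 and 10.51 against 10.37, 10.55 and 10.49, which also overlapped. Its brightest probe set was at -0.085 (adjusted p = 0.558, SE 0.066, 95% confidence interval -0.24 to 0.066), and at -0.035 without S153E-RKIP replicate 1. All 7 of its probe sets had a difference below 0, from -0.29 to -0.085, and 3 had an unadjusted p under 0.05, but none was called. With their mean the value was -0.16 (adjusted p = 0.208). Probe sets of 1 gene read the same RNA and are not replicates.

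**Figure D4:**
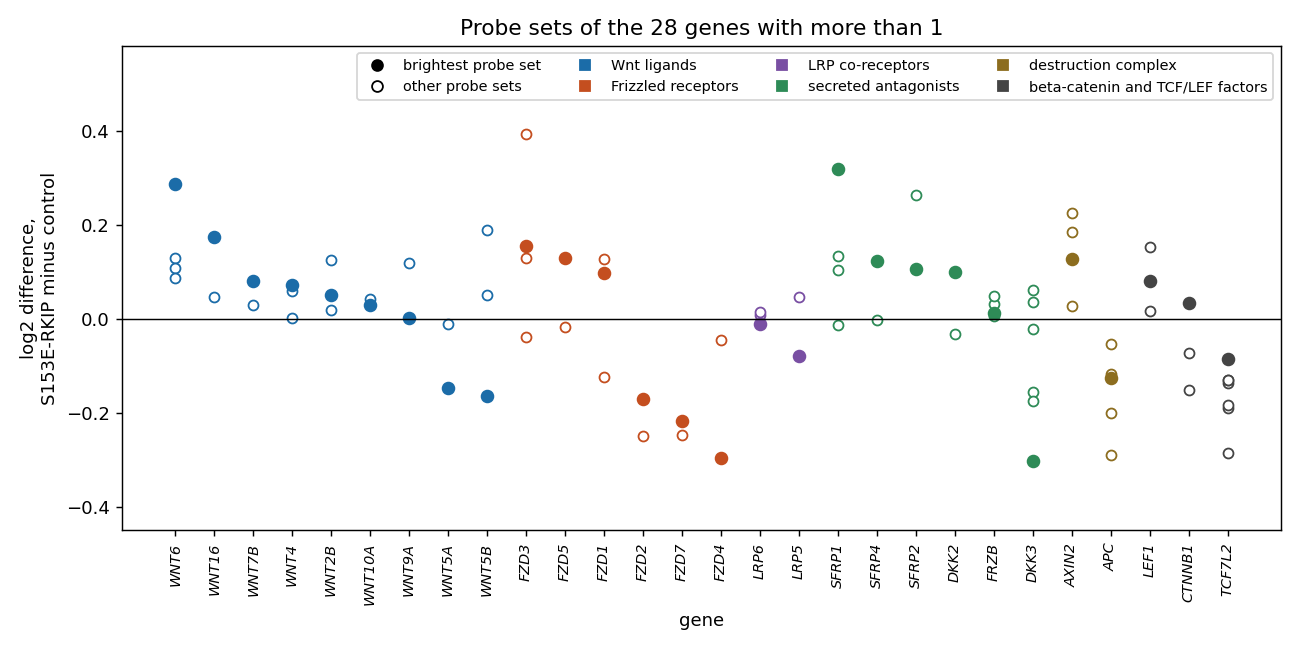
Log2 difference of every probe set of the 28 Wnt genes with more than 1, coloured by role, with the brightest probe set filled and the others open. All 7 probe sets of TCF7L2 and all 5 of APC lie below 0 and all 4 of WNT6 and of AXIN2 above, while those of DKK3 and WNT5B lie on both sides.

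Of the 28 Wnt genes with several probe sets, 17 had all of them on one side of 0, 6 below and 11 above. The same count was not made over all genes, so these 17 have no background here. None of the 102 probe sets was called when each was tested by itself, beside 1.35% of all 41091 probe sets with 1 symbol, and 18 (17.6%) had an unadjusted p under 0.05, beside 14.1% of all such probe sets.

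The rest of the pathway was followed in 102 further genes from 4 lists, of which 1 was called higher and 3 lower, beside 1.90% of all genes, or 136 higher and 240 lower. An unadjusted p under 0.05 was found for 24 of the 102 (23.5%), beside 15.7% of all genes. Among 26 measured target genes of β-catenin, CLDN1 was called higher and SOX9 lower. CLDN1, which encodes the tight junction protein claudin-1, had signals of 7.42, 7.66 and 7.53 in control and 8.70, 8.77 and 8.81 in S153E-RKIP. It rose by 1.22, or 2.33-fold (SE 0.073, adjusted p = 1.46e-04), its second probe set rose by 0.83, and it was called in every setting tried, with adjusted p of at most 0.00411. SOX9, a transcription factor of progenitor cells, had 9.75, 9.62 and 9.53 against 9.03, 9.15 and 9.18, all 3 below the controls. It fell by 0.51 (SE 0.075, adjusted p = 0.0130), as did its second probe set by 0.46, but the call was lost without control replicate 1 or 2 or S153E-RKIP replicate 2 (adjusted p = 0.0733, 0.0641 and 0.0632). The list's median was 0.031.

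Among 22 genes of the planar polarity and calcium branch 2 were called, both lower. Over all genes 1.90% were called, 136 higher and 240 lower. An unadjusted p under 0.05 was found for 1 higher and 7 lower, 36.4% of the list beside 15.7% of all genes. Of the 22 genes 14 lay above the median level of all genes. At such levels 18.3% of all genes had an unadjusted p under 0.05, 498 higher and 1315 lower. The list median was -0.045, beside 0.010 over all genes. CAMK2D, a calcium/calmodulin-dependent kinase subunit, had 8.88, 8.90 and 8.84 in control and 8.29, 8.50 and 8.45 in S153E-RKIP. It fell by 0.46 (SE 0.068, adjusted p = 0.0149), and 3 of its 5 probe sets were called when tested one by one. The call was lost without control replicate 1, 2 or 3 (adjusted p = 0.0992, 0.0812 and 0.0759) or S153E-RKIP replicate 3 (0.0526). ROCK2, a kinase downstream of RhoA, had 9.81, 9.70 and 9.69 against 9.32, 9.42 and 9.42. It fell by 0.34 (SE 0.061, adjusted p = 0.0309), a call lost when any 1 of the 6 arrays was left out (adjusted p from 0.0725 to 0.147), after quantile normalisation again (0.0570), with a replicate block (0.0749) and with the intensity trend removed (0.0600). In those settings its difference ran from -0.36 to -0.30. PRICKLE1, a core polarity protein gene chosen after its value was seen, had a difference of -0.35 (adjusted p = 0.0529).

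No call was made among 25 genes that modulate Wnt reception, of which 5 had an unadjusted p under 0.05, 4 higher and 1 lower. That is 20% of the list, beside 15.7% of all genes. The list median was 0.056. The smallest p in that list was that of ROR1, a receptor of WNT5A, at -0.22 (SE 0.072, adjusted p = 0.197), with 8.62, 8.53 and 8.57 in control and 8.23, 8.34 and 8.47 in S153E-RKIP. None of 29 genes of the β-catenin machinery was called either, 3 (10.3%) had an unadjusted p under 0.05, and the median was -0.047. DVL2, which relays the signal from Frizzled, came nearest at -0.29 (SE 0.072, adjusted p = 0.110), with 8.77, 8.64 and 8.69 against 8.54, 8.37 and 8.33. It was called among genes above the median level alone (adjusted p = 0.0496).

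**Figure D5:**
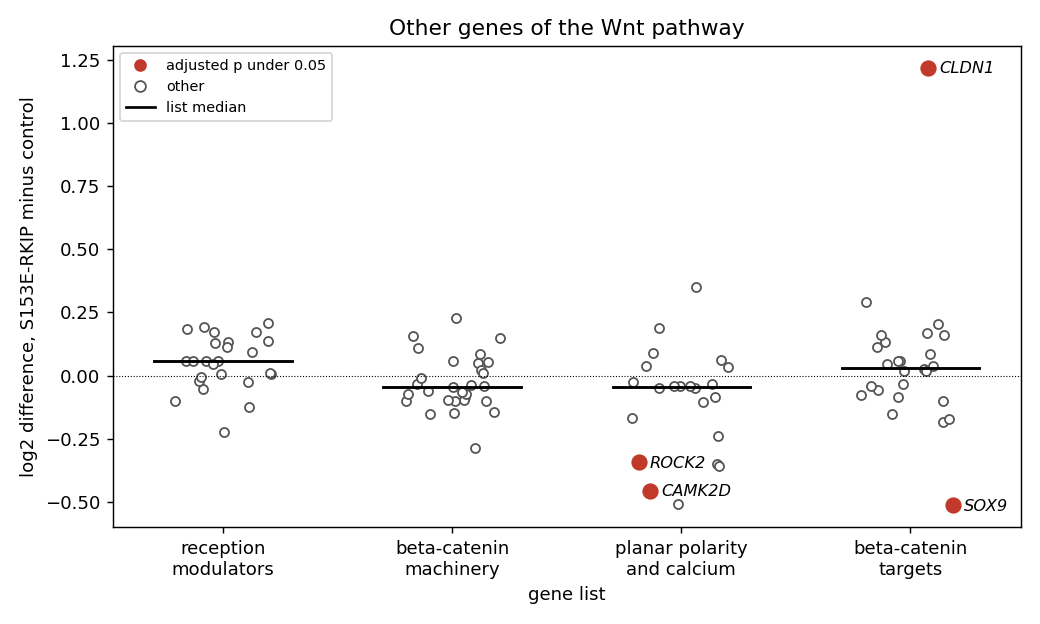
Log2 difference (S153E-RKIP minus control) of 102 other genes of the Wnt pathway in 4 lists, 1 point per gene spread sideways for legibility, with a bar for the list median. Red points are the genes called at a limma adjusted p under 0.05, CLDN1 at 1.22, SOX9 at -0.51, CAMK2D at -0.46 and ROCK2 at -0.34.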

How the data were processed

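RNA from 6 samples was extracted with a miRNeasy kit and labelled with biotin for the arrays, per the labels' protocols. The authors deposited log2 expression values; RMA is named in the submitters' processing notes, with its version and probe annotation not given in the sources used here. RMA corrects background, normalises the arrays together and summarises each probe set, and the deposited values carry no detection call. Of 54675 probe sets, 41091 outside the array's controls have 1 gene symbol, and the brightest of each gene was used. Groups were compared with limma 3.58.1 in R 4.3.3 (lmFit, eBayes, two-sided, Benjamini-Hochberg over 19775 genes). The number of arrays limits the precision. The fit was tested on simulated data. Figures used matplotlib 3.10.9.

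Members, lists and tests were chosen with earlier results of these data known, so no list count is independent support. Described one by one were Wnt genes with an unadjusted p under 0.05, 14 chosen for their role (where measured), and called genes of each list, or else the gene with the smallest p. Alternatives were the mean of probe sets, single probe sets, no _x_at probe sets, 2 filters on dim genes, quantile normalisation again, equal medians, array weights, eBayes with trend and robust estimation, each array left out, a stricter threshold, a replicate block, and removal of the intensity trend.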

Additional observations from a re-analysis of the deposited data

How the results depend on the processing

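The count of 0 Wnt genes called was kept under the other settings except these. It was 1 (DKK3) among genes above 6 on at least 3 arrays and with equal array medians, 1 (DKK1) with trend and robust estimation, and between 0 and 1 with an array left out, where DKK1 was called without S153E-RKIP replicate 1. DKK3 passed the filter at 6 through its control arrays alone. The 4 other pathway genes called became 1 at an adjusted p under 0.01 and between 1 and 3 with an array left out (1 without control replicate 1 or 2, 2 without control replicate 3 or S153E-RKIP replicate 2). That count was 6 among genes above the median level and 3 after quantile normalisation again. It was 5 with the mean of probe sets and among genes above 6 on at least 3 arrays. It was also 5 with equal array medians and with trend and robust estimation. The 376 genes called over the whole table became 600 with trend and robust estimation, 147 at the stricter threshold and between 124 and 303 with an array left out, the lowest without control replicate 1. They became 523 among genes above the median level, 513 among genes above 6 on at least 3 arrays and 464 with equal array medians. Of the 376 genes 36.2% were higher, and of those called with equal array medians 25%. The cause of these changes was not tested. Replicate numbers were not treated as pairs, and whether they pair the samples is not settled. Deviations of same-numbered arrays from their group means had correlations of 0.13, 0.26 and -0.044 over genes. With a replicate block 332 genes, 0 Wnt genes and 3 other pathway genes were called.

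Directions of the 21 Wnt genes described one by one changed only for CTNNB1, WNT5B, LRP5 and LRP6, none of which was called. CTNNB1 was at -0.064 with the mean of probe sets and -0.0024 with equal medians, and WNT5B at 0.025 with the mean of probe sets. LRP6 was at 0.0035 with the mean of probe sets, 0.051 after quantile normalisation again, 0.013 with array weights and 0.039 with the intensity trend removed. With an array left out LRP6 ran from -0.075 to 0.10 and LRP5 from -0.19 to 0.079. Signals below the median level, where 28 of the 44 Wnt genes lie, have no measure of signal over background.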

Other observations

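Several Wnt genes hold exactly the same deposited value on more than 1 array. This holds for 17 of 44 (38.6%), beside 32.6% of all genes, and on 3 or more arrays for 2 of 44, WNT10B and WNT2, beside 8.86% of all genes. The spread between replicates was larger in S153E-RKIP than in control for 26 of the 44 Wnt genes (59.1%), beside 65.4% of all genes.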
